A study of Mus musculus with 6 samples.

Results

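The genes described here encode the folding and secretion machinery of the endoplasmic reticulum (ER), the compartment in which a hepatocyte makes the proteins it sends to the blood. They are 39 of the 22481 gene symbols in the expression table of a mouse liver study, chosen by name from a list of ER chaperones, disulfide isomerases, degradation factors, translocon subunits and signal peptidase subunits. The list was chosen with earlier results of these data known, so shares set beside those of all genes may in part reflect that choice. All 39 symbols were found in the table, and 38 had enough counts to be tested. The livers came from male C57BL/6J mice, an inbred laboratory strain, aged 10 weeks. The fasted group went without food for 16 h before the liver was taken and the fed group ate freely, with 3 libraries of ribosome-depleted total RNA in each. Whole liver was used, so fewer cells of a type and less RNA per cell cannot be told apart. The labels do not say that each library is a mouse of its own, so the p-values below measure the spread between these libraries, which may be technical.

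A secreted protein is brought to the ER membrane by the signal recognition particle and its receptor, enters through the SEC61 channel, loses its signal peptide to the signal peptidase and gains glycans from the oligosaccharyltransferase. Inside, BiP, GRP94, the lectins calreticulin and calnexin, and the protein disulfide isomerases help it to fold, KDEL receptors return escaped chaperones from the Golgi, and ER-associated degradation removes what fails. The unfolded protein response raises the genes of this machinery through the transcription factors ATF6 and XBP1 when folding demand exceeds capacity, and liver is known to engage it with feeding. ATF6 and XBP1 act through the ER stress response element (ERSE), whose CCAAT end is bound by the factor NF-Y.

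Promoter sequences, from 250 bases before to 50 bases after the annotated start, were matched in RefSeq (GRCm38.p6) for 30 of the 39 genes, 34 promoters in all, and searched on both strands for 3 motifs. The ERSE, spelled CCAAT, 9 bases of any kind and CCACG, was present for 10 of the 30 genes (33.3%), against 0.137% of the 27025 genes, and 0.119% of the 32851 promoters, of the whole table. The ERSE-II, spelled ATTGG, 1 base of any kind and CCACG, was present for Herpud1 and Dnajb11, against 0.0444% of all genes and 0.0365% of all promoters, and TGACGTGG, the core of an element that XBP1 binds, for Kdelr3, against 0.714% of all genes and 0.676% of all promoters. None of these matches shared bases with another in the members' promoters. A match describes the letters in the window and shows no binding. These genes belong to the machinery that ATF6 and XBP1 raise through the ERSE, so its excess among them is no independent finding. The promoter of Hspa5, which encodes BiP, on the plus strand at chr2:34771840-34772139, is shown whole because it is the textbook ERSE promoter, with the fixed bases of its match in capitals.
Hspa5: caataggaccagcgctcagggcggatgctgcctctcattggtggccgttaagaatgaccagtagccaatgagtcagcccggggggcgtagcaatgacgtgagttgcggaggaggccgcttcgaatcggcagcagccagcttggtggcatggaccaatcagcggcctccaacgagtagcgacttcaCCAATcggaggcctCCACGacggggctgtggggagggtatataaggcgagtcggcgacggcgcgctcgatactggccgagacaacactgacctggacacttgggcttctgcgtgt

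For 5 more ERSE genes the match is shown with 10 bases on either side, read in the direction of the motif. The match of Hsp90b1 farther from its start and that of Pdia6 lie on the strand of the gene, and those of Calr, Derl3 and Creld2 on the opposite strand. They are shown as examples from the chaperone, lectin, isomerase and degradation groups.
Hsp90b1: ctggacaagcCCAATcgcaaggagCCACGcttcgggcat
Calr: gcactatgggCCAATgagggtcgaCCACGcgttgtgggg
Pdia6: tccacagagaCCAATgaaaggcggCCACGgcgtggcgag
Creld2: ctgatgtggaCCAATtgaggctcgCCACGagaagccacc
Derl3: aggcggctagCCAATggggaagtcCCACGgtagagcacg

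All 5 matches end before the start of the gene, at 194 bases for Hsp90b1, 144 for Calr, 80 for Pdia6, 108 for Creld2 and 138 for Derl3. The windows lie at chr10:86705628-86705666 (Hsp90b1, gene on the minus strand), chr8:84847065-84847103 (Calr, minus), chr12:17266481-17266519 (Pdia6, plus), chr15:88819510-88819548 (Creld2, plus) and chr10:75893232-75893270 (Derl3, plus). The other ERSE genes were Canx, Ero1lb, Dnajc3 and Syvn1, and Hsp90b1 held a second match. Both ERSE-II matches are shown because their genes lay on opposite sides of the fed level.
Herpud1: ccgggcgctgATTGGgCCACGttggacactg
Dnajb11: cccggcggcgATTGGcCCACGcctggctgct

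They lie at chr8:94386367-94386397 and chr16:22857842-22857872, both on the plus strand, and that of Dnajb11 lies after the annotated start. Of the 12 genes with an ERSE or ERSE-II, 11 had a log2 fold change below 0 and fasted values that lay below all fed values, where 51.3% of all tested genes lay below 0 and 13.7% had fasted values below all fed values. The median of the 12 was -1.03, and Herpud1 was the exception, at 0.73. The 17 tested genes with a matched promoter and neither motif had a median of -0.78 and a range from -2.43 to -0.14, all below 0, and the fasted values lay below all fed values for 11 of them. Sdf2l1, Fkbp11 and Pdia4 were among these 17, so low fasted values were seen with and without an exact match.

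The comparison asked how transcripts of this machinery differ between the livers of fasted and freely fed mice. Most members lay lower in fasted livers, among them the chaperone genes Hspa5, Hsp90b1 and Sdf2l1, the isomerase genes Pdia3, Pdia4 and Pdia6 and the translocon gene Sec61b. Fkbp11, which encodes an ER prolyl isomerase, was 4.60-fold lower and Pdia6, which encodes a disulfide isomerase, was 3.60-fold lower, and these were the members that passed the test. The 7 genes of ER-associated degradation, which recognise and remove misfolded proteins, were mixed, with log2 fold changes, fasted over fed, from -2.53 for Derl3 to 0.73 for Herpud1, none of which passed. Together the members took 0.770%, 0.510% and 0.612% of the unscaled counts of fasted libraries 1, 2 and 3. In fed libraries 1, 2 and 3 they took 1.07%, 1.21% and 1.38%. With counts scaled to a common library total (CPM), they summed to 8351, 5423 and 6120 CPM in fasted libraries 1, 2 and 3. The sums were 9249, 11140 and 15059 CPM in fed libraries 1, 2 and 3. Fasted library 1 thus lay relatively nearer to fed library 1 after scaling than by unscaled share.

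In edgeR's quasi-likelihood test over 11633 genes, 2 of the 38 tested members had a Benjamini-Hochberg adjusted p under 0.05 and a lower level in fasted livers, where 1.11% of all tested genes were called lower and 2.52% in either direction. None was called higher, where 1.41% of all tested genes were. At an unadjusted p under 0.05 there were 28 lower members and 1 higher, where 10.8% of all tested genes were lower and 11% higher. An adjusted p under 0.1 was reached by 14 members, against 7.5% of all tested genes. The fasted values lay below all fed values for 27 of the 38, against 13.7% of all tested genes, and for no member did they lie above, against 15.3%. The median log2 fold change, fasted over fed, was -0.85 over the members and -0.02 over all tested genes. Of the members 35 lay below 0, against 51.3% of all tested genes, and 15 lay below -1, against 5.73% of all tested genes. As the members were chosen with earlier results of these data known, these comparisons with all genes describe the list and do not test it. DESeq2 called 21 members lower and 0 higher, where it called 4.56% and 5.04% of all tested genes, and limma on the deposited FPKM called 3 lower (Fkbp11, Pdia3 and Pdia6) and 0 higher, where 0.724% of genes were called lower.

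**Figure D1:**
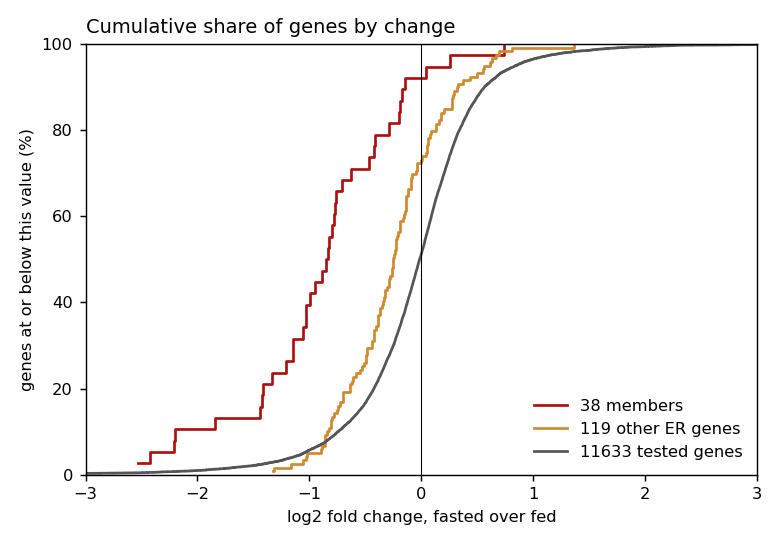
The x axis gives the log2 fold change, fasted over fed, and the y axis the share of genes at or below it, for the 38 tested members, 119 other ER genes and all 11633 tested genes. The curve of the members lies to the left, with its median at -0.85, against -0.25 for the other ER genes and -0.02 for all tested genes. The members were chosen with earlier results of these data known.

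The count of called members moved with single libraries. Without fed libraries 1, 2 and 3 there were 9, 0 and 2 members called lower, and without fasted libraries 1, 2 and 3 there were 4, 0 and 0. The shares of all genes called lower were 1.89% without fed library 1, 3.27% without fed library 3 and 0.134% without fasted library 1, and where no member was called, 13 genes in all were called without fed library 2, 3 without fasted library 2 and 30 without fasted library 3. Members called higher numbered 2 without fed library 3 (Dnajb9 and Herpud1), where 3.08% of all genes were called higher, and 0 without fed library 1, where 2.33% were. Without fed library 3 and fasted library 1 together, a choice made after seeing the data, 11 members were called lower and 0 higher, against 1.26% and 0.991% of all genes. The members' median log2 fold change lay between -1.04 and -0.57 in the 6 fits that each left out 1 library. The libraries also kept an order across members. Fed library 3 was the highest fed library for 36 of 38 members and fed library 1 the lowest for 29, and fasted library 1 was the highest fasted library for 35 and fasted library 2 the lowest for 30. Across all tested genes fed library 3 was the highest fed library for 38.3% and fasted library 1 the highest fasted library for 31.3%. The members thus moved together between libraries and are not separate observations.

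**Figure D2:**
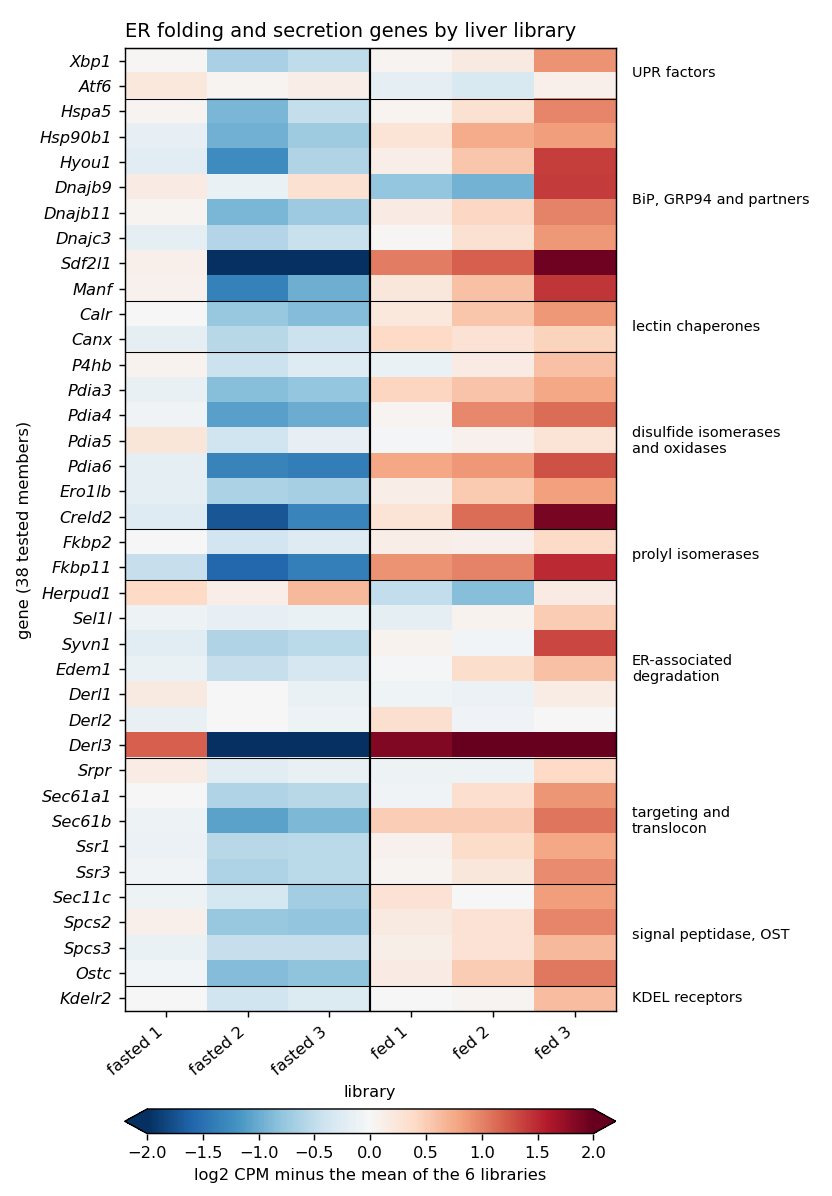
Each row is a tested member, grouped by role, and each column a library, with the colour giving log2 CPM minus the mean of the 6 libraries (red higher, blue lower; CPM is the count scaled to a common library total, and values beyond 2 in either direction share the end colour). Fasted libraries 2 and 3 are the lowest columns for most rows, fasted library 1 lies nearer to the fed libraries, fed library 3 is the highest, and Atf6, Herpud1, Derl1 and Dnajb9 differ from most rows.

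The transcripts of liver inflammation also differed between libraries within a group. Over 22 acute phase genes the mean log2 CPM was 11.29, 11.39 and 10.55 in fasted libraries 1, 2 and 3 and 9.21, 11.67 and 12.61 in fed libraries 1, 2 and 3. Over the members the mean log2 CPM was 6.86, 6.10 and 6.25 in fasted libraries 1, 2 and 3 and 7.04, 7.22 and 7.75 in fed libraries 1, 2 and 3. Both levels follow the same order in the fed libraries but not in the fasted libraries. Fasted library 2 was the lowest fasted library in the members and the highest in the acute phase genes. Fed library 1 was the lowest of all 6 in acute phase transcripts. In the members it was at 7.04, against 6.86 in fasted library 1, the highest fasted library. The part of the acute phase difference in the results was not tested.

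**Figure D3:**
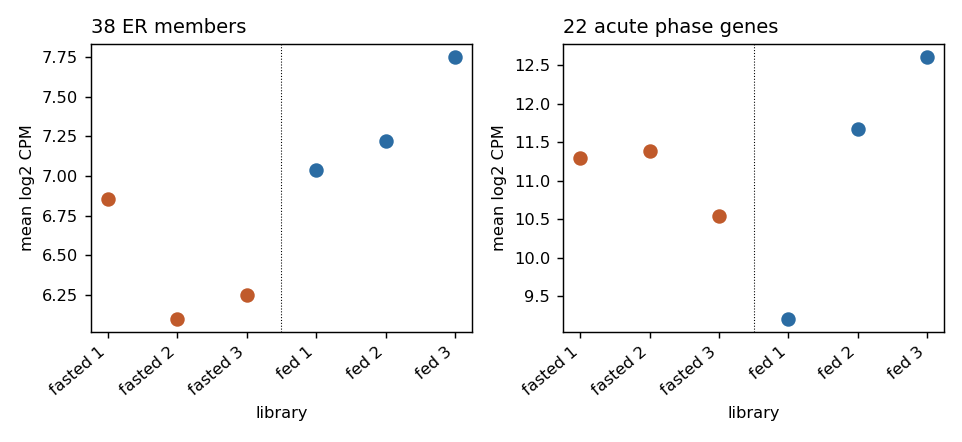
The left panel gives the mean log2 CPM of the 38 members and the right panel that of 22 acute phase genes, 1 point for each library, with fasted libraries at the left of each panel. The members are highest in fed library 3 (7.75) and lowest in fasted library 2 (6.10), while the acute phase genes span 9.21 to 12.61 within the fed group alone.

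Markers of other cells were compared as summed CPM. Plasma cells carry much of this machinery, and the 7 B and plasma cell markers in the table (of 8 listed) summed to 1.75 to 2.83 CPM in fasted libraries and 1.01 to 2.42 CPM in fed libraries, with Mzb1 at no more than 0.249 CPM in any library. The 10 pancreatic acinar markers summed to 3.29 to 5.80 CPM and 5.54 to 31.0 CPM, most of it Cela1, while Cpa1, Pnlip and Prss2 were at 0 in all fasted libraries and in fed libraries 1 and 3. The 7 bile duct markers summed to 13.8 to 30.1 CPM in fasted and 34.6 to 543 CPM in fed libraries, mostly Spp1, with Krt7 and Krt19 at no more than 0.870 CPM. Macrophage markers (8) summed to 425 to 633 and 431 to 576 CPM, endothelial markers (8) to 224 to 305 and 245 to 347 CPM, and stellate cell and fibroblast markers (8) to 217 to 314 and 238 to 275 CPM, in fasted and fed libraries. Neutrophil markers (6) summed to 21.1 to 106 and 6.63 to 148 CPM, T and NK cell markers (7) to 1.56 to 2.83 and 1.26 to 3.25 CPM and red blood cell markers (5 of 7 in the table) to 137 to 219.9 and 76.9 to 242 CPM, in the same order. The 9 hepatocyte markers summed to 98395 to 110519 CPM in fasted and 24179 to 74695 CPM in fed libraries, and without Alb to 37954 to 48149 CPM and 20224 to 24286 CPM. Of the 9, 6 (Apoa1, Apob, Cps1, Tat, Cyp2e1 and Hnf4a) had fasted values above all fed values, where 15.3% of all tested genes did, and Cyp2e1 passed edgeR's test (log2 fold change 2.12, adjusted p = 0.0351). The part of these marker lists in the results was not tested. The table gives 0 for Alb, which encodes albumin, in fed library 2, against 50245.6 to 72565.2 CPM in fasted libraries and 33310.2 and 50408.6 CPM in the other fed libraries. Such a 0 may be a value that the counting failed to give, and Alb is not a member.

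By level per transcript length (FPKM, averaged over the 6 libraries), P4hb led at 449, followed by Hsp90b1 at 443, Hspa5 at 370.2 and Calr at 356 FPKM. The order of the leading 4 lay within the spread between libraries, with P4hb at 434, 327 and 366 FPKM in fasted libraries 1, 2 and 3, against 438, 528 and 599 FPKM in fed libraries 1, 2 and 3. At the low end were Ssr1 at 10.7, Atf6 at 9.76, Derl3 at 5.64 and Kdelr3 at 0.257 FPKM. The leading 4 encode soluble folding factors of the ER lumen, but levels did not part by role. The isomerase gene Pdia5 was at 36.7 FPKM. Of the transcription factors, Atf6 stood near the bottom and Xbp1 at rank 9 of the 39, at 112 FPKM.

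Among the transcription factors of the unfolded protein response, neither passed. Xbp1, whose mRNA is spliced by the sensor IRE1 to give the active factor, was at 203, 128 and 141 CPM in fasted libraries 1, 2 and 3, against 208, 226 and 374 CPM in fed libraries 1, 2 and 3. The groups did not overlap, but fasted library 1 lay just below fed library 1 (log2 fold change -0.78, SE 0.29, edgeR adjusted p = 0.181). Gene counts do not part spliced from unspliced Xbp1. Atf6, a membrane factor that is cut in the Golgi to enter the nucleus, was at 88.9, 79.5 and 84.5 CPM in fasted libraries 1, 2 and 3, against 67.4, 62.0 and 82.7 CPM in fed libraries 1, 2 and 3, and its groups overlapped (log2 fold change 0.25, SE 0.16, edgeR adjusted p = 0.383).

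Of the 8 genes of BiP, GRP94 and their partners, none passed edgeR's test, 7 had an unadjusted p under 0.05, all of them lower in fasted livers, and DESeq2 called 6. Over all tested genes 10.8% were lower at that unadjusted p, and DESeq2 called 4.56% lower. The median log2 fold change was -1.12. Hspa5, the Hsp70 chaperone BiP (ENSMUSG00000026864, chromosome 2, 34771970 to 34777547 in GENCODE M21 on GRCm38), was at 929, 473 and 645 CPM in fasted libraries 1, 2 and 3, against 930.4, 1109.8 and 1755 CPM in fed libraries 1, 2 and 3. Fasted library 1 reached the level of fed library 1 and the groups were parted by a hair (log2 fold change -0.89, SE 0.35, edgeR adjusted p = 0.194; DESeq2 0.0706). Hsp90b1, the Hsp90 chaperone GRP94, was at 1046, 597 and 714 CPM in fasted libraries 1, 2 and 3, against 1410.3, 1946 and 2081 CPM in fed libraries 1, 2 and 3. Here the groups stood further apart (log2 fold change -1.21, SE 0.29, edgeR adjusted p = 0.0797; DESeq2 0.000514).

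Sdf2l1, a cofactor that works with BiP and its J-domain partners, had a far lower level in 2 of the fasted libraries. It was at 36.4, 7.22 and 8.13 CPM in fasted libraries 1, 2 and 3, against 69.1, 77.8 and 131 CPM in fed libraries 1, 2 and 3, so fasted library 1 lay between the other fasted libraries and the fed group (log2 fold change -2.43, SE 0.64, edgeR adjusted p = 0.0952). Without fasted library 1 its log2 fold change was -3.58 (adjusted p = 0.0409). Manf, a small ER-resident protein that stabilises BiP bound to its clients, was at 120.3, 44.4 and 57.5 CPM in fasted libraries 1, 2 and 3, against 132, 169.8 and 303 CPM in fed libraries 1, 2 and 3, without overlap (log2 fold change -1.44, edgeR adjusted p = 0.128). Its exons overlap those of Rbm15b on the same strand, a gene at 10.9 to 13.3 CPM in fasted and 11.4 to 18.1 CPM in fed libraries. Hyou1, a large Hsp70 relative that exchanges the nucleotide of BiP, was at 130.3, 62.8 and 98.6 CPM in fasted libraries 1, 2 and 3, against 165, 219.8 and 391 CPM in fed libraries 1, 2 and 3 (log2 fold change -1.41, edgeR adjusted p = 0.0992). In all 3 of these genes fasted library 1 was the fasted library nearest to the fed group. The J-domain cochaperones Dnajb11 and Dnajc3 had log2 fold changes of -1.03 and -0.84 without overlap of the groups (edgeR adjusted p = 0.128 and 0.127).

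Dnajb9, a J-domain protein that brings BiP to the sensor IRE1 and to degradation clients, departed from its group. It was at 72.9, 59.4 and 80.6 CPM in fasted libraries 1, 2 and 3, against 38.2, 34.1 and 171 CPM in fed libraries 1, 2 and 3. The fasted values lay between a pair of low fed libraries and the high fed library 3 (log2 fold change -0.19, SE 0.60, edgeR adjusted p = 0.88). Without fed library 3 its direction turned, with a log2 fold change of 0.98 and an adjusted p of 0.0244. On FPKM with limma the estimate was also above 0, at 0.12 (adjusted p = 0.929).

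**Figure D4:**
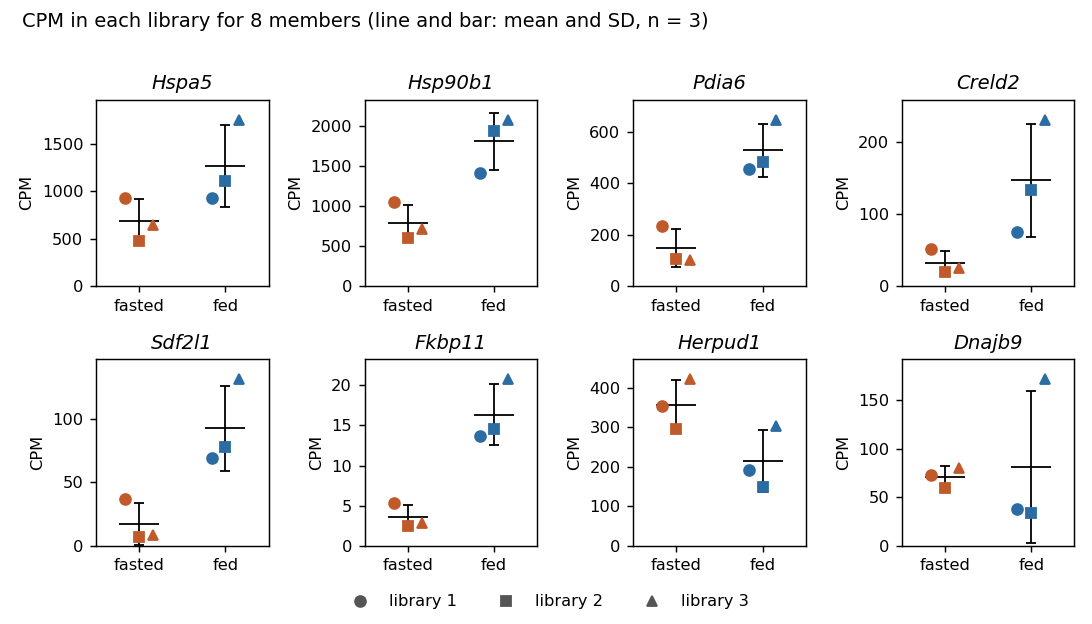
Each panel gives the CPM of a member in each library (y axis, from 0), fasted at the left and fed at the right, with the marker shape giving the library number and the line and bar the mean and SD of 3 libraries. Pdia6 and Fkbp11 are parted by a wide gap, Hspa5 is parted by a hair between fasted library 1 and fed library 1, Herpud1 lies higher in fasted livers with overlap, and Dnajb9 is highest in fed library 3.

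Both lectin chaperones, which hold glycoproteins by a trimmed glycan, lay lower in every fasted library than in any fed library. Calr, calreticulin, was at 613, 367 and 339 CPM in fasted libraries 1, 2 and 3, against 714, 902 and 1126 CPM in fed libraries 1, 2 and 3 (log2 fold change -1.05, SE 0.30, edgeR adjusted p = 0.11). Canx, its membrane-bound relative calnexin, was at 248, 191 and 208 CPM in fasted libraries 1, 2 and 3, against 370.3, 342 and 382 CPM in fed libraries 1, 2 and 3 (log2 fold change -0.76, SE 0.17, edgeR adjusted p = 0.0705). Canx had the tighter libraries and Calr the larger difference, and both had an unadjusted p under 0.05 and were called by DESeq2 (adjusted p = 0.00802 and 0.000352). At that unadjusted p 10.8% of all tested genes were lower, DESeq2 called 4.56% lower, and 13.7% had fasted values below all fed values.

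Of the 7 disulfide isomerases and oxidases, 1 fell, 5 had an unadjusted p under 0.05 and DESeq2 called 5, with a median log2 fold change of -1.15. Among all tested genes 1.11% fell, 10.8% were lower at that unadjusted p, and DESeq2 called 4.56% lower. Pdia6, an isomerase that works beside BiP (ENSMUSG00000020571, chromosome 12, 17266545 to 17284770), fell to 233, 106 and 102 CPM in fasted libraries 1, 2 and 3, against 456, 484 and 647 CPM in fed libraries 1, 2 and 3. All 3 fasted libraries lay well below the lowest fed library, with means of 147 ± 74.2 and 529 ± 103 CPM (SD, n = 3 each), or 3.60-fold lower when fasted (fitted log2 difference -1.85, SE 0.36, edgeR adjusted p = 0.0494). The adjusted p stands at the threshold, and the call was lost when fed library 2 (adjusted p = 0.150), fasted library 2 (0.195) or fasted library 3 (0.178) was left out, and with limma on FPKM without a filter on low values (0.0781). With the replicate number as a block the call was lost too, as given in the closing section. An exon of Atp6v1c2 on the opposite strand overlaps Pdia6, and Atp6v1c2 was at no more than 0.0914 CPM in any library.

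Creld2, an ER protein with isomerase activity that is secreted under stress, was at 51.7, 19.0 and 24.9 CPM in fasted libraries 1, 2 and 3, against 75.3, 134 and 232 CPM in fed libraries 1, 2 and 3. Its estimate was larger than that of Pdia6 with a wider spread in both groups (log2 fold change -2.21, SE 0.51, edgeR adjusted p = 0.0699). Pdia3, which serves calnexin and calreticulin clients, was at 419.5, 257 and 271 CPM in fasted libraries 1, 2 and 3, against 625, 686 and 789 CPM in fed libraries 1, 2 and 3 (log2 fold change -1.15, SE 0.25, edgeR adjusted p = 0.0604), and limma on FPKM called it (adjusted p = 0.0449). Pdia4 and the oxidase gene Ero1lb, which passes oxidising power to the isomerases, had log2 fold changes of -1.42 and -0.999 without overlap (edgeR adjusted p = 0.0954 and 0.0659). P4hb, the founding protein disulfide isomerase and a subunit of prolyl 4-hydroxylase and of the microsomal triglyceride transfer protein, was at 1288, 914 and 1029 CPM in fasted libraries 1, 2 and 3, against 1116, 1378 and 1848 CPM in fed libraries 1, 2 and 3. Its groups overlapped, as did those of Pdia5 (log2 fold change -0.43 and -0.20, edgeR adjusted p = 0.4 and 0.595).

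Among the prolyl isomerases, which turn peptide bonds before proline, Fkbp11 fell and Fkbp2 did not pass. Fkbp11 (ENSMUSG00000003355, chromosome 15, 98724366 to 98728198) fell to 5.34, 2.47 and 2.86 CPM in fasted libraries 1, 2 and 3, against 13.7, 14.6 and 20.7 CPM in fed libraries 1, 2 and 3. The highest fasted library lay well below the lowest fed library, with means of 3.56 ± 1.56 and 16.3 ± 3.83 CPM (SD, n = 3 each; log2 fold change -2.20, SE 0.33, edgeR adjusted p = 0.0246). The call was lost when fed library 2 (adjusted p = 0.103), fasted library 2 (0.120) or fasted library 3 (0.130) was left out, and with limma on FPKM without a filter on low values (0.0565). With the replicate number as a block the call was lost too, as given in the closing section. Fkbp2 was at 31.4, 23.9 and 26.0 CPM in fasted libraries 1, 2 and 3, against 34.1, 33.4 and 40.6 CPM in fed libraries 1, 2 and 3, a smaller difference with no overlap (log2 fold change -0.41, SE 0.15, edgeR adjusted p = 0.18).

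The 7 genes of ER-associated degradation had the widest range of the groups, with log2 fold changes from -2.53 to 0.73 and a median of -0.29. None passed edgeR's test, 3 were lower and Herpud1 was higher at an unadjusted p under 0.05, and DESeq2 called 1, Edem1. For all tested genes the shares were 10.8% lower and 11% higher at that unadjusted p, and 4.56% called lower by DESeq2. Herpud1, which organises the ubiquitin ligase complex in the ER membrane, was at 353, 295 and 421 CPM in fasted libraries 1, 2 and 3, against 191, 149.7 and 303 CPM in fed libraries 1, 2 and 3. Fasted library 2 lay just under fed library 3, and the other fasted values lay above all fed values (log2 fold change 0.73, SE 0.29, edgeR adjusted p = 0.2). Without fed library 3 it passed, with a log2 fold change of 1.07 and an adjusted p of 0.0355.

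Derl3, a derlin found in secretory cells, was the member with the largest estimate and the widest error. It was at 6.02, 0.0914 and 0.346 CPM in fasted libraries 1, 2 and 3, against 9.52, 15.8 and 11.4 CPM in fed libraries 1, 2 and 3. Fasted library 1 stood apart from the other fasted libraries, which held 1 and 4 counts (log2 fold change -2.53, SE 1.005, edgeR adjusted p = 0.202). Without fasted library 1 its log2 fold change was -5.73 (adjusted p = 0.0373), a fitted value that rests on these few counts. The other derlins, Derl1 and Derl2, overlapped between groups, with log2 fold changes of 0.04 and -0.18 (edgeR adjusted p = 0.906 and 0.551), and the sign of Derl1 turned with upper-quartile scaling, at -0.025.

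Syvn1, the ubiquitin ligase HRD1, was at 55.4, 42.3 and 44.1 CPM in fasted libraries 1, 2 and 3, against 67.3, 61.8 and 161 CPM in fed libraries 1, 2 and 3. Fed library 3 lay far above the other fed libraries, and Sel1l, the partner of Syvn1, overlapped between groups (log2 fold change -1.03 and -0.29, edgeR adjusted p = 0.169 and 0.455). Without fed library 3 the log2 fold change of Syvn1 was -0.45. Edem1, a lectin that marks misfolded glycoproteins for removal, had a log2 fold change of -0.63 without overlap (edgeR adjusted p = 0.14; DESeq2 0.0438).

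At the entry to the ER, 4 of 5 genes had an unadjusted p under 0.05, none passed edgeR's test, DESeq2 called 3 and the median log2 fold change was -0.83. Over all tested genes 10.8% were lower at that unadjusted p, and DESeq2 called 4.56% lower. Sec61b, the beta subunit of the channel, was at 38.7, 19.8 and 22.1 CPM in fasted libraries 1, 2 and 3, against 58.1, 58.2 and 86.6 CPM in fed libraries 1, 2 and 3. It had the largest difference of the group, without overlap (log2 fold change -1.33, SE 0.29, edgeR adjusted p = 0.0626). Ssr3, a subunit of the translocon-associated TRAP complex, was at 262, 180.1 and 189 CPM in fasted libraries 1, 2 and 3, against 286, 324 and 531 CPM in fed libraries 1, 2 and 3 (log2 fold change -0.86, edgeR adjusted p = 0.149). The TRAP subunit Ssr1 was close to it, at -0.83 (adjusted p = 0.0972), and so was the channel subunit Sec61a1, at -0.79 with overlapping groups (adjusted p = 0.171). Srpr, the receptor of the signal recognition particle, was at 247, 193 and 202 CPM in fasted libraries 1, 2 and 3, against 208, 208 and 293 CPM in fed libraries 1, 2 and 3, and its groups overlapped (adjusted p = 0.719).

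All 4 genes of the signal peptidase and the oligosaccharyltransferase had fasted values below all fed values and an unadjusted p under 0.05, none passed edgeR's test and DESeq2 called 3. Fasted values lay below all fed values for 13.7% of all tested genes. Lower levels at that unadjusted p were seen for 10.8% of them, and DESeq2 called 4.56% lower. Ostc, a subunit of the oligosaccharyltransferase, was at 49.2, 28.2 and 29.5 CPM in fasted libraries 1, 2 and 3, against 57.8, 72.8 and 106 CPM in fed libraries 1, 2 and 3 (log2 fold change -1.15, SE 0.30, edgeR adjusted p = 0.0937). Spcs2, a subunit of the signal peptidase, was at 81.3, 44.7 and 44.0 CPM in fasted libraries 1, 2 and 3, against 86.5, 92.4 and 150.1 CPM in fed libraries 1, 2 and 3 (log2 fold change -0.95, edgeR adjusted p = 0.149). In both genes fasted library 1 lay nearest to the fed group and fasted libraries 2 and 3 lay together below it. The catalytic subunit Sec11c and the subunit Spcs3 had log2 fold changes of -0.78 and -0.71 (edgeR adjusted p = 0.136 and 0.0952).

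The KDEL receptors, which return proteins that end in the KDEL signal to the ER, did not pass the test or the filter on low counts. Kdelr2 was at 63.6, 48.1 and 52.8 CPM in fasted libraries 1, 2 and 3, against 63.5, 65.7 and 97.8 CPM in fed libraries 1, 2 and 3, with overlap (log2 fold change -0.46, edgeR adjusted p = 0.255, unadjusted p = 0.0620). Kdelr3 was listed at 0 in the 3 fasted libraries, against 7, 16 and 7 counts in fed libraries 1, 2 and 3, and was the member that did not pass the filter on low counts. At this depth 3 counts correspond to 0.260 to 0.291 CPM in fasted and 0.186 to 0.252 CPM in fed libraries, which limits what a 0 can show. Its exons overlap those of Ddx17 on the opposite strand, a gene at 80.4 to 107 CPM in fasted and 137 to 166 CPM in fed libraries.

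**Figure D5:**
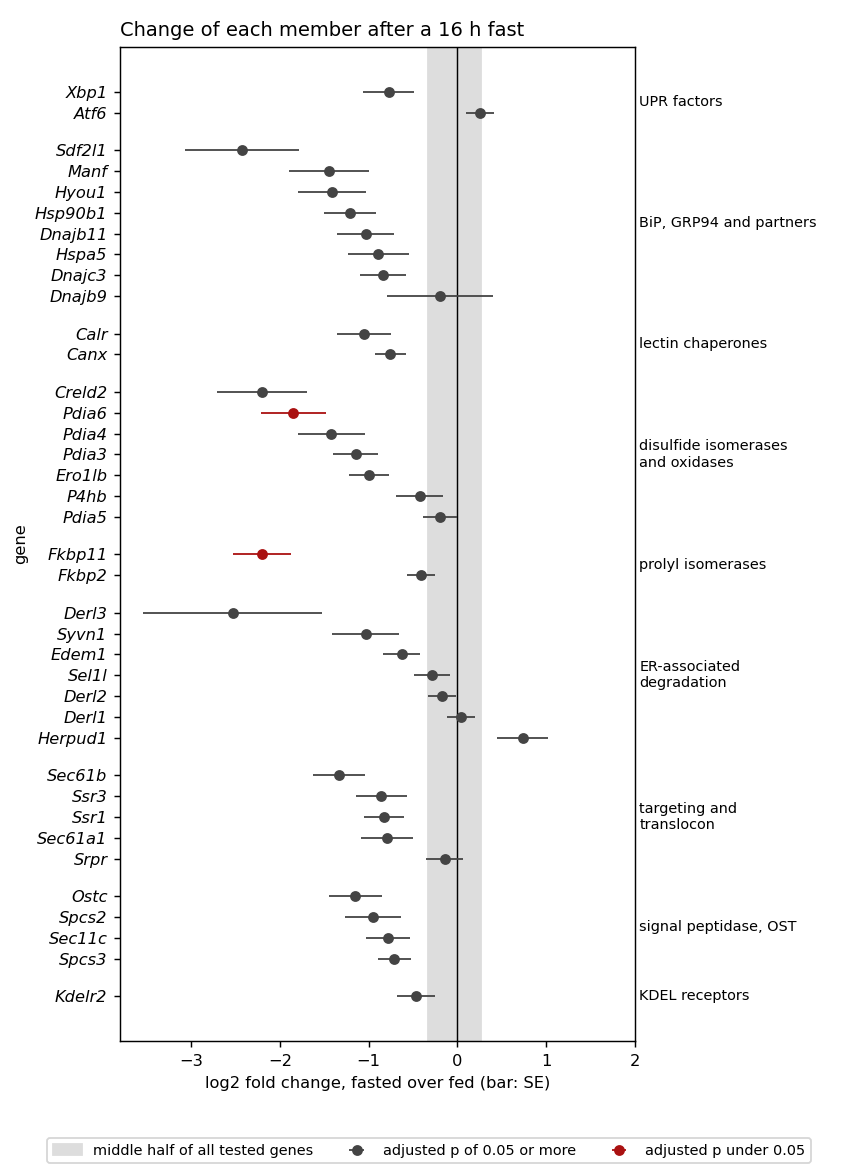
Points give the log2 fold change of each tested member, fasted over fed, with its SE, grouped by role; the band spans the middle of all tested genes from the lower quartile (-0.33) to the upper (0.27), and red marks an adjusted p under 0.05. Pdia6 and Fkbp11 are red, Sdf2l1, Creld2 and Derl3 lie as far or further left with wider errors, and Herpud1 and Atf6 lie to the right of 0.

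Counts can be shared where annotated genes overlap. Exons of 12 members overlap another gene in GENCODE M21, 3 of them on the same strand (Hsp90b1, Manf and Pdia4) and 11 on the opposite strand. Beyond the genes named above, those with an opposite-strand partner were Hsp90b1, Dnajb9, Manf, Pdia3, Syvn1, Derl2, Srpr, Sec61a1 and Spcs3. The library kit marks strand, but whether the counting used it was not stated, so the counts of these 12 genes may include reads of their partners.

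The rest of the pathway was read from a list of 125 further ER genes, of which 124 were in the table and 119 were tested. Of these 1 fell and none rose in edgeR's test, where 1.11% and 1.41% of all tested genes were called lower and higher. At an unadjusted p under 0.05, 30 were lower and 10 higher, against 10.8% and 11% of all tested genes. DESeq2 called 16 lower and 5 higher, against 4.56% and 5.04%, and limma on FPKM called 3 lower, against 0.724%, and 0 higher. Their median log2 fold change was -0.25, against -0.85 over the members and -0.02 over all tested genes. The gene that fell was Ddost, a subunit of the oligosaccharyltransferase, to 61.2, 42.7 and 42.0 CPM in fasted libraries 1, 2 and 3, against 90.4, 102 and 136 CPM in fed libraries 1, 2 and 3 (log2 fold change -1.17, SE 0.22, edgeR adjusted p = 0.0468). All 11 tested genes of that enzyme had a log2 fold change below 0, with a median of -0.70, and the fasted values lay below all fed values for 8 of them. Shares of all tested genes were 51.3% below 0 and 13.7% with fasted values below all fed values.

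The other groups of the list held no gene that passed edgeR's test, and their medians lay between -0.48 and 0.11. For comparison, 10.8% of all tested genes were lower and 11% higher at an unadjusted p under 0.05. DESeq2 called 4.56% of all tested genes lower and 5.04% higher. The 9 genes of glycan processing and lectin transport had a median of -0.48, with 3 at an unadjusted p under 0.05 (DESeq2 called 2), all lower, and included the cargo receptor parts Mcfd2 and Lman2 at -0.48 and -0.33. The 17 further isomerases had a median of -0.35, with 7 at an unadjusted p under 0.05 (DESeq2 called 3), all lower, and included the cyclophilin Ppib at -0.89 (adjusted p = 0.0673) and the thioredoxin-like Txndc5 at -0.64 (adjusted p = 0.159). The 18 genes of targeting, translocon and signal peptidase had a median of -0.24, with 4 lower and 1 higher at an unadjusted p under 0.05 (DESeq2 called 2, both lower), and their most abundant genes, Sec62 and Sec63, lay at 0.18 and -0.04. The 8 further chaperones had a median of -0.23, with 1 lower and 2 higher at an unadjusted p under 0.05 (DESeq2 called 0). Their most abundant genes were Dnajb12, a J-domain protein of the ER membrane, at 0.37 (adjusted p = 0.127), and Hspa13, an Hsp70 relative, at -0.89 (adjusted p = 0.274).

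The 26 genes of vesicle coats and retrieval had a median of -0.15, with 4 lower and 1 higher at an unadjusted p under 0.05 (DESeq2 called 1, lower), and included the cargo receptor Surf4 at -0.39 and the coat subunit Arcn1 at -0.26. The 18 further degradation genes had a median of 0.11, with 2 lower and 3 higher at an unadjusted p under 0.05 (DESeq2 called 1 lower and 3 higher), and included the ATPase Vcp at 0.16. The 12 further sensors and regulators had a median of -0.24, with 1 lower and 3 higher at an unadjusted p under 0.05 (DESeq2 called 2, both higher). Of these, Creb3l3, a membrane-bound factor of the hepatocyte that is cut like ATF6, was at 292, 265 and 299 CPM in fasted libraries 1, 2 and 3, against 202, 179 and 171 CPM in fed libraries 1, 2 and 3. Its fasted values lay above all fed values without passing (log2 fold change 0.63, edgeR adjusted p = 0.0857), and Atf4, the factor of the integrated stress response, lay at 0.17 (adjusted p = 0.689).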

How the data were processed

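RNA was measured in 6 mouse liver libraries (3 fasted, 3 fed). Per the labels' protocols, ribosomal RNA was removed and a stranded total RNA kit was used. Per the submitters' processing notes, the tools were CASAVA 1.8 and TopHat2 and the build hg19, which is human, while the table holds mouse Ensembl identifiers. The counting program and its strand setting were not given in the sources used here. Per the file headers, the authors deposited an FPKM and an estimated count for each of 22564 genes and each library, with 1 line emptied for this work. Of the identifiers, 21839 occur in GENCODE M21, and coordinates are from it (GRCm38).

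The deposited counts were not raw. Each library had a step, between 0.840 and 1.18, and 90.5% to 91.1% of its nonzero values were within 0.02 of a whole number of steps. Each estimated count was divided by that step and rounded, and 162 lines that share a symbol were summed. The counts of these genes totalled 11158000.0 to 11639384 in fasted and 12289648 to 14771815 in fed libraries. Fasted and fed libraries were compared with edgeR 4.0.16 (R 4.3.3; TMM, filterByExpr at 10 counts, quasi-likelihood test, no covariate, two-sided, Benjamini-Hochberg over 11633 genes, threshold 0.05). The common biological coefficient of variation was 27.9%. The SE is the size of the log2 fold change divided by the square root of F. CPM are relative to TMM-scaled totals. DESeq2 1.42.0 and limma 3.58.1 on log2(FPKM + 1), for genes with a mean FPKM of at least 0.5, were alternatives, with those of the closing section. With 3 libraries against 3 no exact permutation test of a single gene can go below 0.1, so none is given. The fits were tested on simulated data.

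The members and gene lists were chosen with earlier results of these data known. Library values are given, in each subclass, for members that passed, for the 2 largest changes and for the highest FPKM, and of each further group for up to 3 genes that passed or else the 2 with the highest mean CPM. Other members are given where a sentence needs them. A gene that this rule names is not reported here.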

Additional observations from a re-analysis of the deposited data

How the results depend on the processing

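Of 646 values of single members over 17 alternative settings, 582 kept their direction and their side of the threshold, 40 came to pass, 10, of Pdia6 and Fkbp11, no longer passed and 14 changed sign. The sign changes were those of Dnajb9, Derl1 and Srpr, and 33 of the 35 members with an estimate below 0 stayed below 0 in every setting run. Derl1 was at -0.025 with upper-quartile factors, -0.043 on FPKM with a pseudocount of 1, -0.044 with one of 0.1 and -0.043 without a filter, and between -0.039 and 0.13 when single libraries were left out. Dnajb9 was at 0.12, 0.13 and 0.12 on FPKM with a pseudocount of 1, with one of 0.1 and without a filter, at 0.23 with the replicate number as a block and at 0.95 without fed library 3 and fasted library 1, and spanned -0.59 to 0.98 when single libraries were left out. Srpr spanned -0.26 to 0.043 when single libraries were left out. Genes called over the table numbered 1116 with DESeq2, 153, 142 and 40 on FPKM with a pseudocount of 1, with one of 0.1 and without a filter, and 29 with the block, and ranged from 3 to 753 when single libraries were left out. Members called lower numbered 21 with DESeq2, 0 on FPKM without a filter, 0 with the block, 11 without fed library 3 and fasted library 1 together (chosen after seeing the data) and 0 to 9 when single libraries were left out. Members called higher ranged from 0 to 2 when single libraries were left out. Further ER genes called lower numbered 16 with DESeq2, 2 without a filter, 3 on FPKM at either pseudocount, 0 on FPKM without a filter, 0 with the block, 5 without fed library 3 and fasted library 1 together and 0 to 7 when single libraries were left out; those called higher numbered 5 with DESeq2 and 0 to 3 when single libraries were left out. The KDEL receptor median was -3.30 without a filter, because Kdelr3 then enters. The block left Pdia6 at an adjusted p of 0.129 and Fkbp11 at 0.0898. The labels do not say whether the replicate numbers pair the libraries. Deviations from the group means correlated at -0.07, 0.18 and -0.13 between libraries of the same number. By these deviations 1 of 3 fasted libraries was most like the fed library of its number. With 3 libraries in each group such values cannot settle whether the numbers mark pairs. The cause of the other shifts was not tested.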
